A study of Mus musculus with 14 samples.

Results

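DNA replication and the step from G1 into S phase were followed through 37 genes in mouse liver organoids, in the cells they were made from and in liver tissue. The genes were taken by symbol, as a list of replication factors, E2F factors, G1 cyclins and CDK inhibitors, and all 37 were among the 28022 genes of the count table. RNA was sequenced in 14 libraries, 2 for each of 7 conditions, all of strain C57BL/6J as labelled. The Fib libraries came from embryonic fibroblasts (MEFs), and 2D-iHepSC libraries (2D-iHs) from a monolayer of iHepSCs, hepatic stem-like cells converted from MEFs with lentiviral *Oct4* and *Hnf4α*. The 2D-iHepSCiEC libraries (2D-iHEs) came from a monolayer of iHepSCs with iECs, endothelial-like cells converted with *ETV2* from the human fibroblast line HF1. The 3D-iHA libraries (iHLOs) came from organoids in which a spheroid of iHepSCs alone was set in a collagen and Matrigel hydrogel, and 3D-iHEA libraries (iHEAs) from assembloids that held iECs in the hydrogel as well. The 4 kinds of iHepSC culture were kept in the same medium and MEFs in another, but the spheroids of the 3D cultures were first formed in a hepatic medium. The 3D cultures were also shaken in their hydrogel. The co-cultures mix mouse and human cells, and a human read could enter the counts through alignment to the mouse genome alone. The Adult-Liver and Fetal-Liver libraries came from whole tissue of mice several weeks old and of mid-gestation embryos.

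Before S phase, the origin recognition complex, CDC6 and CDT1 load the MCM2-7 helicase onto origins, and MCM10, CDC45 and the GINS complex turn it on. Polymerases then copy the strands behind it, held by the PCNA clamp, from nucleotides that ribonucleotide reductase and thymidylate synthase supply. D-type and E-type cyclins open this phase by inactivating the RB protein and releasing E2F factors, which are known to drive many of these genes, whereas p21 and p27 inhibit the cyclin-dependent kinases; hepatocytes of the adult liver are known to rest outside the cycle.

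Total counts ranged from 20851489 to 35143325 per library, and 3 counts stood for 0.0771 to 0.196 CPM (counts scaled to library size with TMM over the 14 libraries). The libraries of a condition differed beyond sampling noise, with a chi-square statistic per gene of 3.05 to 13.4, highest in fetal liver and in iHEAs (11.5), where sampling noise alone gives 1. The libraries of a condition are named as first and second, except that 1 of the iHEA libraries carries conflicting numbers and is called unnumbered. Nothing says that the libraries of a condition were separate cultures or animals, so p-values measure the spread between these libraries, which may be technical. Among 10 hepatocyte markers, *Alb* had 2 to 210 counts and *Cps1* 1 to 17 counts per culture library other than MEFs, whereas *Alb* took 22.5% and 23.6% of all counts in adult liver, so the cultures largely lacked these 2 defining markers. *Apoa1* and *Apob* had at least 5697 and 8622 counts in the same libraries. The TMM factors were 0.445 and 0.451 in adult liver, 1.19 and 1.22 in fetal liver and 1.09 to 1.19 in the other libraries, so levels in adult liver depend on this scaling. Fold changes are those of the fits, whose TMM factors were set on the genes that passed the filter (0.429 and 0.438 in adult liver over the 14 libraries), so they can differ from ratios of the CPM printed here. Between pairs of conditions the difference was at most 3.20% for the 37 genes among the cultures and at most 12.3% with MEFs or liver, with medians of 4.99% in 2D-iHs against MEFs and 9.64% in iHLOs against adult liver. Values by library total alone, with no such factor, are given beside the liver comparisons as an alternative chosen after seeing the data. Differences were tested with edgeR's quasi-likelihood test, and a gene was called at a Benjamini-Hochberg adjusted p under 0.05 over all genes tested. All 37 genes passed the filter on low counts in every comparison. In bulk RNA, fewer cells in cycle and less of a transcript per cell cannot be told apart.

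Fetal liver held the highest mean level of 34 of the 37 genes, and adult liver held the lowest of 28. Summed over the 34 genes other than *Ccnd1*, *Cdkn1a* and *Cdkn1b*, the level was 6908 and 7399 CPM in fetal liver and 514 and 521 CPM in adult liver. The monolayers lay between them at 1526 and 1556 CPM in 2D-iHs and 1460 and 1516 CPM in 2D-iHEs, above MEFs at 1295 and 1317 CPM. The 3D cultures lay below MEFs and the monolayers and above adult liver, with 758 and 788 CPM in iHLOs and 687 and 759 CPM in iHEAs. Both 3D means lay below both 2D means for 35 genes, and for 27 of these they also lay above adult liver. The genes that were not highest in fetal liver were *Ccnd1*, highest in 2D-iHEs, *Cdkn1a*, highest in 2D-iHs, and *Cdkn1b*, highest in MEFs. *Fen1* and *Cdkn1b* were the genes whose 3D means were not both below the 2D means. In *Mcm10*, *Tk1*, *Gins1*, *Rfc3*, *Tyms*, *Rpa2*, *E2f8* and *Ccnd1* adult liver lay above at least 1 of the 3D means. By library total alone, adult liver held the lowest mean of 33 genes, and the 3D means lay between 2D and adult liver in 33, all but *Fen1*, *Cdkn1b*, *Mcm10* and *Tk1*. On that scale the summed level was 231.6 and 232 CPM in adult liver and 817 to 903 CPM in 3D.

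**Figure D1:**
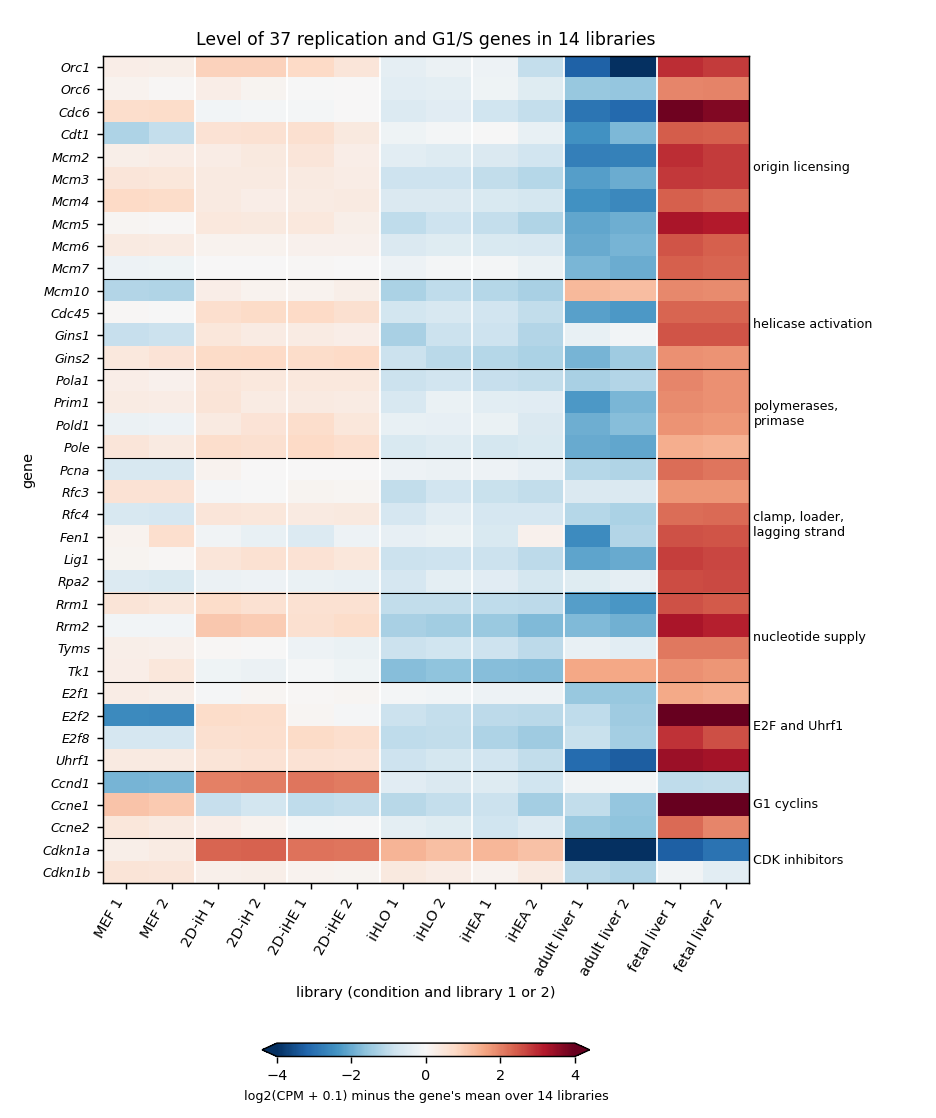
Each row is 1 of the 37 genes, grouped by role, and each column is 1 of the 14 libraries, with colour giving log2(CPM + 0.1) minus the mean of the gene over all libraries (iHEA 2 is the unnumbered library). Most rows are red in fetal liver, near their mean in MEFs and 2D cultures, pale blue in iHLOs and iHEAs and blue in adult liver, whereas on this TMM scale *Tk1* and *Mcm10* are red in adult liver as well and *Ccnd1* and *Cdkn1a* are reddest in the 2D cultures.

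The comparison of 3D with 2D culture asks how the level of each gene changed when the same kinds of cells grew as organoids. Hydrogel, shaking and the earlier medium of the spheroids came with 3D culture, so their parts cannot be told apart. Of the 37 genes, 34 fell and 1 rose in the 4 3D libraries against the 4 2D libraries by edgeR's quasi-likelihood test, where 37.2% of the 13409 genes tested fell and 38.7% rose. On the log2 scale the 37 genes had a median change of -0.96, a fall of 1.95-fold, against 0.014 over all genes tested. A fall of at least 2-fold was called for 17 of them, and for 11.3% of all genes. Every 3D library lay below every 2D library in 34 of the 37 genes and in 36.8% of all genes tested. At least 1 gene fell in every role of the list.

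Among the 10 origin licensing genes, all 10 fell, with a median log2 fold change of -0.79. *Mcm5*, a subunit of the helicase (chr8:75109569-75128439 of GRCm38, plus strand), fell most in this role. Its level was 59.8 and 58.4 CPM in 2D-iHs, 60.8 and 52.7 CPM in 2D-iHEs, 22.4 and 25.1 CPM in iHLOs, and 23.2 and 19.5 CPM in iHEAs. All 4 3D values thus stood below the lowest 2D value, and the log2 fold change was -1.32 (SE 0.07). *Mcm3* (-1.24), *Orc1* (-1.19, with 8.70 and 8.67 CPM in 2D-iHs, 8.02 and 6.39 CPM in 2D-iHEs, 3.49 and 3.83 CPM in iHLOs and 3.90 and 2.30 CPM in iHEAs), *Mcm4* (-0.90), *Mcm2* (-0.88), *Mcm6* (-0.70), *Cdt1* (-0.66), *Cdc6* (-0.59) and *Orc6* (-0.43) followed on the log2 scale. *Mcm7*, a subunit of the same ring, changed least of the genes that fell, at 83.2 and 83.3 CPM in 2D-iHs, 84.6 and 82.7 CPM in 2D-iHEs, 72.1 and 79.1 CPM in iHLOs, and 79.1 and 68.1 CPM in iHEAs. Its log2 fold change was -0.12 (SE 0.05, adjusted p = 0.0322 by edgeR's quasi-likelihood test), with 3D values close below the 2D values. This call was lost without the second 2D-iHE, the first iHLO or the unnumbered iHEA library (adjusted p = 0.0552 to 0.109 by the same test), without the filter (adjusted p = 0.0958) and by library total alone (adjusted p = 0.0725). In the other libraries *Mcm7* had 71.4 and 73.9 CPM in MEFs, 23.0 and 20.8 CPM in adult liver and 438 and 418 CPM in fetal liver, so that the change from 2D to 3D was small beside the range of the gene. Of the exon bases of *Mcm7*, 12.6% are shared with other genes, among them *Ap4m1* and *Cops6* on the opposite strand.

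The 6 ring subunits act as 1 complex, so their levels were also compared per length. Per kb of exon, the subunits spanned 10.3 to 22.0 CPM per kb in 2D-iHs, a ratio of 2.14 between highest and lowest, and 5.84 to 17.1 CPM per kb in iHLOs, a ratio of 2.92. In iHEAs the ratio was 3.23, in 2D-iHEs 2.15, in MEFs 2.99, in adult liver 4.25 and in fetal liver 1.82. *Mcm2* was the lowest subunit in all 7 conditions on this scale. *Mcm6* was the highest in both 2D cultures (22.0 and 22.5 CPM per kb), and *Mcm7* the highest in iHLOs and iHEAs (17.1 ± 1.12 and 16.6 ± 1.76 CPM per kb, SD, n = 2). The subunit levels were thus closest to one another in fetal liver, where they were also highest, and most spread in adult liver. No test was made of these ratios, which depend on exon lengths taken over all annotated transcripts.

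**Figure D2:**
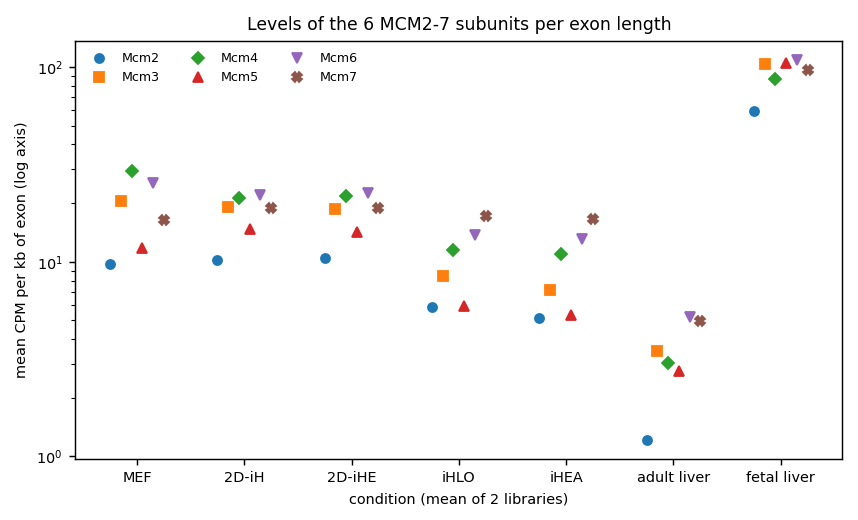
Points give the mean level of the 6 MCM2-7 subunits in 2 libraries per condition, in CPM per kb of exon on a log axis, with 1 symbol per subunit. The points lie within a ratio of 1.82 in fetal liver and 4.25 in adult liver, and *Mcm7* stands above the others in iHLOs and iHEAs.

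All 4 helicase activation genes fell by over 2-fold, with a median log2 fold change of -1.42. *Gins2*, a subunit of the GINS complex, had 17.9 and 18.3 CPM in 2D-iHs, 17.8 and 18.3 CPM in 2D-iHEs, 5.75 and 4.92 CPM in iHLOs, and 4.75 and 4.32 CPM in iHEAs. The 2D values were nearly equal and the 3D values all lower, by 3.56-fold (log2 fold change -1.83, SE 0.08). MEFs, with 14.2 and 15.5 CPM, lay close under the 2D cultures, adult liver, with 2.81 and 3.86 CPM, under the 3D ones, and fetal liver, with 38.0 and 36.7 CPM, above all. Of its exon bases, 67.3% are shared with *Gse1* on the opposite strand, and *Gse1* had 34.98 to 38.9 CPM in 2D and 36.7 to 42.1 CPM in 3D. How strand was treated in counting is not stated, so the level of *Gins2* is uncertain. *Cdc45*, which completes the active helicase with GINS (-1.47), *Gins1* (-1.36) and *Mcm10*, an activator of the helicase (-1.34), fell on the log2 scale as well.

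The 4 genes of polymerases and primase fell by 0.79 to 1.29 on the log2 scale. *Pola1*, the catalytic subunit of polymerase alpha (chrX:93304767-93632155, minus strand), had 32.9 and 31.0 CPM in 2D-iHs and 31.0 and 31.4 CPM in 2D-iHEs. In iHLOs it had 12.7 and 13.7 CPM and in iHEAs 12.2 and 11.7 CPM, well apart from the 2D values (log2 fold change -1.29, SE 0.06). MEFs had 28.1 and 26.1 CPM, adult liver 9.49 and 10.3 CPM and fetal liver 90.6 and 83.2 CPM. *Pole*, the leading strand polymerase, fell alike (-1.28), and *Pold1*, of the lagging strand polymerase (-0.84), and *Prim1*, the primase (-0.79), by less.

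In the role of clamp, clamp loader and lagging strand, 5 of 6 genes fell, with a median of -0.59. *Lig1*, the ligase that joins lagging strand fragments, fell from 63.6 to 70.7 CPM in 2D to 22.5 to 26.2 CPM in 3D (log2 fold change -1.40, SE 0.05). The clamp itself, *Pcna*, fell far less, from 119 and 110 CPM in 2D-iHs and 110 and 109 CPM in 2D-iHEs to 94.9 and 92.8 CPM in iHLOs and 93.6 and 86.6 CPM in iHEAs. The groups of *Pcna* did not overlap, and the log2 fold change was -0.25 (SE 0.04). *Pcna* had 70.0 and 69.2 CPM in MEFs, 49.7 and 46.8 CPM in adult liver and 514 and 480 CPM in fetal liver, so both 2D and 3D cultures lay above MEFs. The clamp loader subunits *Rfc4* (-0.99) and *Rfc3* (-0.90) fell, and *Rpa2*, of the single-strand binding protein, fell by 0.27. *Fen1*, the flap nuclease, had only 17 to 27 counts per culture library, which gave 0.752 and 0.660 CPM in 2D-iHs, 0.540 and 0.705 CPM in 2D-iHEs, 0.642 and 0.686 CPM in iHLOs, and 0.514 and 0.956 CPM in iHEAs. Its groups overlapped, with a log2 fold change of 0.11 (SE 0.24), and it had 0.940 and 1.405 CPM in MEFs, 0.0654 and 0.317 CPM in adult liver and 5.36 and 5.28 CPM in fetal liver. Of its exon bases, 84.2% are shared with *Tmem258* and *Gm10143* on the opposite strand, so its counts stand for a small stretch of the gene if reads on shared bases were dropped.

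The nucleotide supply genes all fell, and *Rrm2* fell most of the 37 genes after *Ccnd1*. *Rrm2* encodes the regulated subunit of ribonucleotide reductase (chr12:24708241-24714146, plus strand), and it had 139 and 133 CPM in 2D-iHs and 104 and 111 CPM in 2D-iHEs. In iHLOs it had 26.9 and 25.5 CPM and in iHEAs 23.9 and 19.5 CPM, so the highest 3D value was far under the lowest 2D value. The fall was 4.95-fold (log2 fold change -2.31, SE 0.11). MEFs had 61.7 and 61.1 CPM, between the 2D and 3D values, adult liver 19.4 and 17.4 CPM and fetal liver 635 and 572 CPM. *Rrm1*, the large subunit, fell from 155 to 169 CPM to 49.0 to 51.3 CPM (log2 fold change -1.62, SE 0.04). *Tk1*, the S phase thymidine kinase (-1.50), fell from 34.9 and 33.7 CPM in 2D-iHs and 37.5 and 34.9 CPM in 2D-iHEs to 12.02 and 12.9 CPM in iHLOs and 12.1 and 11.7 CPM in iHEAs, and *Tyms*, thymidylate synthase (-0.73), fell as well.

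Among the E2F factors, *E2f8*, a repressor of E2F targets that is itself made in S phase, fell 3.52-fold, from 26.2 to 28.7 CPM in 2D to 8.32 and 8.48 CPM in iHLOs and 6.99 and 6.16 CPM in iHEAs. *E2f2*, an activator, fell 2.59-fold, and *Uhrf1*, which carries DNA methylation through replication, fell 2.53-fold. *E2f1*, the best known activator, had 23.3 to 25.7 CPM in 2D and at most 23.0 CPM in 3D. Its log2 fold change of -0.15 (SE 0.06, adjusted p = 0.0313 by edgeR's quasi-likelihood test) was small, and the groups lay next to each other without overlap. The call for *E2f1* was lost without the filter (adjusted p = 0.0877), by library total alone (adjusted p = 0.0621) and without the second 2D-iH, the second 2D-iHE, the second iHLO or either iHEA library (adjusted p = 0.0519 to 0.0956 by the same test).

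*Ccnd1*, the D-type cyclin that couples growth signals to G1 (chr7:144929931-144939925, minus strand), showed the largest fall of the 37 genes. It had 641 and 655 CPM in 2D-iHs and 688 and 660 CPM in 2D-iHEs, the highest level of any of the 37 genes in these libraries. In iHLOs it had 116 and 105 CPM and in iHEAs 110 and 89.8 CPM, a fall of 6.13-fold (log2 fold change -2.62, SE 0.07). Of its exon bases 23.4% are shared with *LTO1* on the opposite strand, which had 18.8 to 20.9 CPM in 2D and 22.3 to 25.5 CPM in 3D. The E-type cyclins moved less. *Ccne2* fell by 0.59 on the log2 scale, and *Ccne1* had 4.43 and 5.09 CPM in 2D-iHs, 4.19 and 4.36 CPM in 2D-iHEs, 3.88 and 4.39 CPM in iHLOs, and 4.69 and 3.26 CPM in iHEAs. Its groups overlapped, with a log2 fold change of -0.11 (SE 0.13), and the liver tissues lay far apart, at 4.25 and 2.85 CPM in adult and 155 and 153 CPM in fetal liver.

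The CDK inhibitors parted. *Cdkn1a*, which encodes p21 (chr17:29090976-29100727, plus strand), fell 1.95-fold, from 370 and 379 CPM in 2D-iHs and 333 and 324 CPM in 2D-iHEs to 186 and 168 CPM in iHLOs and 183 and 166 CPM in iHEAs. *Cdkn1b*, which encodes p27, was the 1 gene that rose, from 66.1 and 66.9 CPM in 2D-iHs and 63.6 and 61.5 CPM in 2D-iHEs to 75.1 and 70.1 CPM in iHLOs and 62.9 and 74.0 CPM in iHEAs. MEFs had 81.9 and 79.3 CPM of *Cdkn1b*, above all of these. The 2D and 3D groups overlapped, since the first iHEA library lay among the 2D values, and the log2 fold change was 0.17 (SE 0.06, adjusted p = 0.0209 by edgeR's quasi-likelihood test). Without either 2D-iHE library, the first iHLO or the unnumbered iHEA library the gene was not called (adjusted p = 0.0540 to 0.0591 by the same test).

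**Figure D3:**
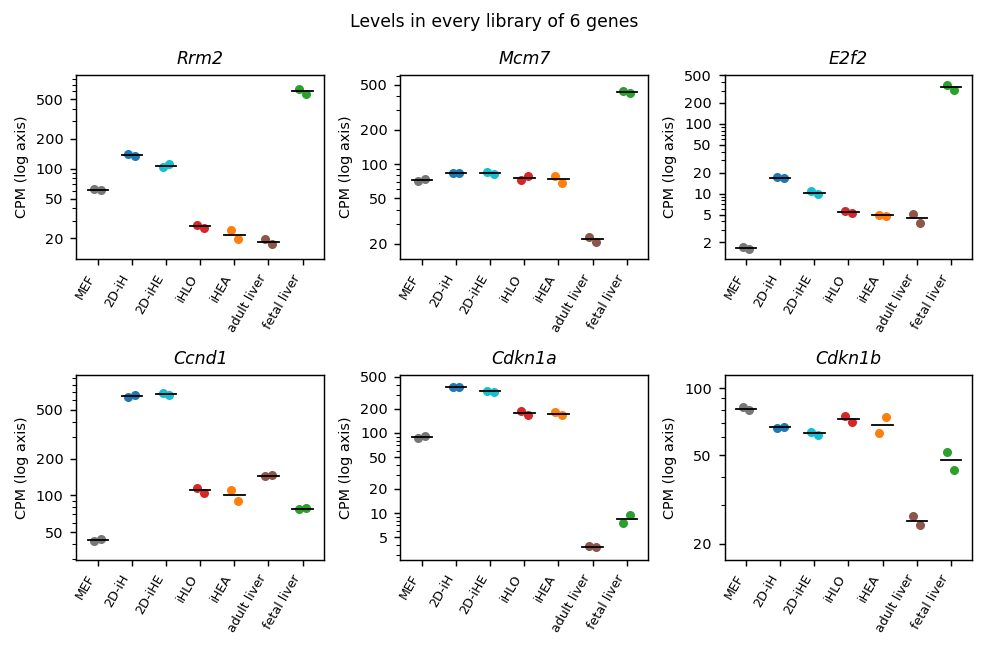
Each panel shows 1 gene in all 14 libraries, with points for libraries, black lines for the mean of 2 libraries and CPM on a log axis. *Rrm2* and *Ccnd1* fall from the 2D to the 3D cultures by 4.95-fold and 6.13-fold, *Mcm7* and *Cdkn1b* hardly differ between them, and *Cdkn1a* is lowest in the liver tissues.

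The regions upstream of the genes were read from RefSeq (GRCm38.p6), as the 250 bases before each RefSeq start, for 31 of the 37 genes. Some genes have more than 1 start, and any gene of the table counted when at least 1 of its windows held the word. *Ccnd1*, *Ccne2*, *Gins1*, *Gins2*, *Mcm4* and *Pole* were not matched. An E2F word, TTTCCCGC, TTTGGCGC, TTTCGCGC or TTTGCCGC on either strand, was found in 8 of these 31 genes (25.8%) and in 477 of 17638 genes of the table (2.70%). The 8 genes were *Cdc6*, *Mcm5*, *Mcm6*, *Mcm7*, *Orc1*, *Pola1*, *Rfc3* and *Uhrf1*. The windows with a word in *Cdc6*, *Mcm7* and *Uhrf1*, and the words of *Orc1* and *Rfc3*, lie inside the span of the gene annotated in GENCODE. In *Mcm7* and *Uhrf1* another window of the gene held no word. CCAAT was found in 64.5% of the 31 genes and 38.9% of all genes, and TTTGAA, the core of the cell cycle homology region of mitosis genes, in 16.1% and 15.8%. Windows free of annotated exons are shown for 3 genes with a word, of which *Mcm5* and *Mcm6* hold overlapping words on both strands, and for 2 without one, *Rrm1*, which fell more than these 3, and *Cdkn1b*, which rose. Capitals mark the E2F words, and each window is written 5′ to 3′ on the strand of its gene. The *Mcm5* window is chr8:75109259-75109508 (plus strand), that of *Mcm6* chr1:128359706-128359955 (minus strand), and that of *Pola1* chrX:93632156-93632405 (minus strand). The *Rrm1* window is chr7:102441445-102441694 (plus strand), and that of *Cdkn1b* chr6:134920151-134920400 (plus strand).
Mcm5: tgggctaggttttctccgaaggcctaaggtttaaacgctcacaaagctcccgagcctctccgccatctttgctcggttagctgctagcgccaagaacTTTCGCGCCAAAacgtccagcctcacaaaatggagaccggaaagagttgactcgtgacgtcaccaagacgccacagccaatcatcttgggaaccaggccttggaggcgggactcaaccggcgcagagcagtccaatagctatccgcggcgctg
Mcm6: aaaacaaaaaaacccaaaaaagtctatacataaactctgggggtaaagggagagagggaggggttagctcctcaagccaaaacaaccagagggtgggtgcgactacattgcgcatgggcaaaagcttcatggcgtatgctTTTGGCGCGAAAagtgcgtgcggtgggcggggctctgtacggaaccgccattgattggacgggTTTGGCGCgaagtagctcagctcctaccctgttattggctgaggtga
Pola1: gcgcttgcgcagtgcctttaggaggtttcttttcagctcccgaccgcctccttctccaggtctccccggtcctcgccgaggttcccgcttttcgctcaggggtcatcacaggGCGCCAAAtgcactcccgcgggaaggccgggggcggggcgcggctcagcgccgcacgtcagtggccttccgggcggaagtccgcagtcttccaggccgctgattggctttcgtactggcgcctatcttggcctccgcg
Rrm1: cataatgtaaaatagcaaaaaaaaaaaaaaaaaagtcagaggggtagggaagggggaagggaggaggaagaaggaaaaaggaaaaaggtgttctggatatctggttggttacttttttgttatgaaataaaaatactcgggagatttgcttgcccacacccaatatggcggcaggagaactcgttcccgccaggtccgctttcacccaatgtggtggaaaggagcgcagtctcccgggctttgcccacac
Cdkn1b: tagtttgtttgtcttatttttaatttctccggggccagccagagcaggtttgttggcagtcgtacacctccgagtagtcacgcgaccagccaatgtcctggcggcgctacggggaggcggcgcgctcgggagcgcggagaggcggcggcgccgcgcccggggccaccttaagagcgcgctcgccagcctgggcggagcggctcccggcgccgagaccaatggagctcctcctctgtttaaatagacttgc
In *Mcm6* the words began 110, 106 and 47 bases before the start, in *Mcm5* 153 and 149 bases and in *Pola1* 138 bases. Among the 8 genes with a word the log2 fold change in 3D ran from -0.12 in *Mcm7* to -1.34 in *Uhrf1*. The words are exact matches of letters, and binding was not measured. The *Rrm1* window holds GTTCCCGC, which differs from TTTCCCGC in its first letter only, so its lack of a word rests on the words listed.

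iHLOs against 2D-iHs and iHEAs against 2D-iHEs gave the effect of 3D culture without and with iECs, from libraries that the comparisons do not share. In iHLOs 32 of the 37 genes fell (35.3% of all genes) and 0 rose (36.9% of all genes), with a median of -0.97. In iHEAs 33 fell (34.9% of all genes) and 0 rose (36.0% of all genes), with a median of -1.01. DESeq2's Wald test also called 0 genes higher in both, and at an unadjusted p under 0.05 edgeR gave 1 gene higher in iHLOs (37.8% of all genes) and 0 in iHEAs (37.1% of all genes). That gene, *Cdkn1b*, was called higher in iHLOs by edgeR's quasi-likelihood test without the filter, with the filter of at least 5, with the 4 libraries alone and with the replicate block (adjusted p = 0.00605, 0.0472, 0.00645 and 0.00498), and in iHEAs without the filter (adjusted p = 0.0175). *Mcm7*, *Fen1*, *Ccne1* and *Cdkn1b* were not called in either comparison, and *E2f1* was not called in iHLOs. *Cdkn1b* had a log2 fold change of 0.17 (SE 0.07) in iHLOs and 0.16 (SE 0.08) in iHEAs. It was called higher in iHLOs without either iHEA library (adjusted p = 0.00417 in both cases) and in iHEAs without the first iHEA library (adjusted p = 0.000255), by edgeR's quasi-likelihood test, and in the latter case *Mcm7* was called lower (adjusted p = 0.00263). By library total alone *Cdkn1b* was called higher in both (adjusted p = 0.0333 and 0.0483 by edgeR's quasi-likelihood test). *Mcm7* was also called lower in iHEAs under DESeq2 size factors and median centring (adjusted p = 0.0474 and 0.0392 by edgeR's quasi-likelihood test). The fall of *Rpa2* was not called in iHLOs without either 2D-iH library or the first iHLO library, nor in iHEAs without any 1 of the 2D libraries or the unnumbered iHEA library (adjusted p = 0.0622 to 0.295 by the same test). DESeq2's Wald test called it in neither (adjusted p = 0.0581 in iHLOs and 0.0938 in iHEAs). In iHEAs edgeR's quasi-likelihood test did not call it either with the filter of at least 5 (adjusted p = 0.0518), with the 4 libraries alone (0.0532) or by library total alone (0.0616). Leaving out 1 library also ended the calls for *Cdc6* in iHLOs (without the first iHLO, adjusted p = 0.0545), and in iHEAs those for *Orc6* (without the second 2D-iHE or the unnumbered iHEA, 0.0530 and 0.105) and *E2f1* (without the second 2D-iHE, 0.0637), by edgeR's quasi-likelihood test. *Ccnd1* fell by 2.51 in iHLOs and 2.72 in iHEAs, *Rrm2* by 2.34 and 2.27, and *Gins2* by 1.72 and 1.95, all on the log2 scale. *E2f2* fell by 1.61 in iHLOs and 1.05 in iHEAs, and *E2f8* by 1.61 and 2.04. *Cdc6* fell by 0.38 and 0.82.

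**Figure D4:**
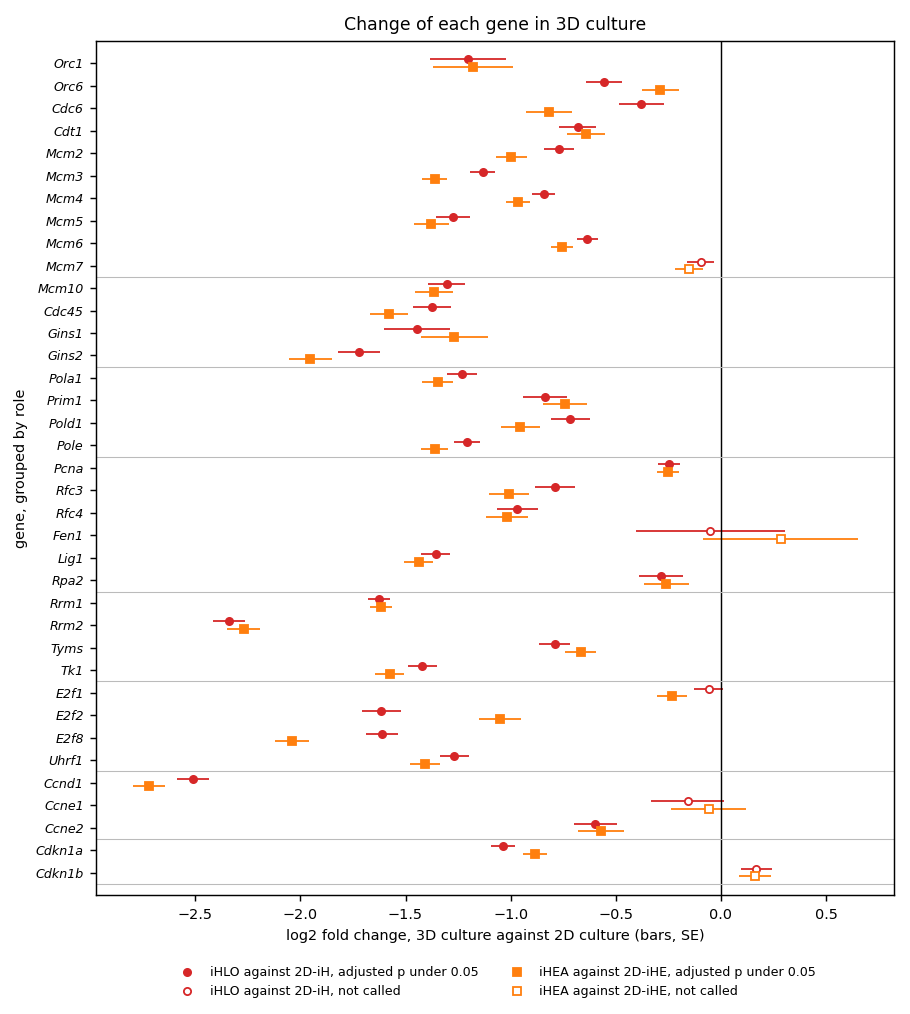
Points give the log2 fold change of each gene in iHLOs against 2D-iHs (circles) and in iHEAs against 2D-iHEs (squares), with bars for the SE, and open symbols mark genes that were not called. Nearly all points lie left of 0 in both comparisons, from -2.72 for *Ccnd1* to the open symbols of *Mcm7*, *Fen1*, *Ccne1*, *Cdkn1b* and, in iHLOs, *E2f1* near 0.

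The effect of iECs was small beside that of 3D culture. In 2D-iHEs against 2D-iHs 2 of the 37 genes were lower (3.92% of all genes) and 0 higher (4.26% of all genes), with 0 higher also at an unadjusted p under 0.05 (11.4% of all genes) and by DESeq2. *E2f2* fell from 17.1 and 16.9 CPM in 2D-iHs to 10.8 and 9.92 CPM in 2D-iHEs (log2 fold change -0.69, SE 0.09, adjusted p = 0.000533 by edgeR's quasi-likelihood test). *Rrm2* fell by 0.32 (SE 0.07, adjusted p = 0.0137 by edgeR's quasi-likelihood test), with no overlap between the pairs of libraries. The call for *Rrm2* was lost without either 2D-iH library or the first 2D-iHE library (adjusted p = 0.0670 to 0.207 by the same test). Without either iHEA library, with the 4 libraries alone and with the replicate block, *Tyms*, *Ccne2* and *Cdkn1a* were called lower as well, which makes 5 genes, but calls rose over all genes too, with 6.77% to 7.34% lower under these fits.

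In iHEAs against iHLOs 0 of the 37 genes were called lower (1.07% of all genes) and 0 higher (1.19% of all genes) by edgeR's quasi-likelihood test, and DESeq2's Wald test also called 0. Without the filter *Mcm3*, *Rrm2* and *E2f8* were called lower (adjusted p = 0.0405, 0.0142 and 0.0491 by edgeR's quasi-likelihood test), where 2.17% of all genes were. At an unadjusted p under 0.05 by edgeR, 5 genes had lower values (6.46% of all genes) and 0 higher ones (6.23% of all genes), and the share in both directions together was near the 12.7% of all genes. The log2 fold changes ranged from -0.36 to 0.14, and 32 of 37 were below 0. *Cdc6*, the loader of the helicase, had 7.16 and 7.73 CPM in iHLOs and 6.05 and 5.42 CPM in iHEAs (log2 fold change -0.36, SE 0.11). *E2f8* (-0.33, SE 0.09, adjusted p = 0.0954), *Rrm2* (-0.25, SE 0.08), *Mcm3* (-0.22, SE 0.06) and *Mcm2* (-0.17, SE 0.08) made up the others by edgeR's quasi-likelihood test. In these genes the unnumbered iHEA library had the lowest value of the 4 3D libraries, and without the other iHEA library *Mcm3*, *Rrm2* and *Ccnd1* were called lower (adjusted p = 0.0212, 0.00988 and 0.0126 by edgeR's quasi-likelihood test), where 2.56% of all genes were. Endothelial markers moved with the iECs as well, since 3 of the 6 tested were lower and 0 higher both in iHEAs against iHLOs, with *Tie1* (-1.59) and *Vwf* (-0.70) first, and in 2D-iHEs against 2D-iHs, with *Tie1* (-1.32) and *Tek* (-0.99) first. Their part in the values of the 37 genes was not tested.

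The difference between these effects, iECs in 3D minus iECs in 2D, gave 0 calls lower (1.62% of all genes) and 0 higher (1.52% of all genes) by edgeR's quasi-likelihood test, and 0 by DESeq2's Wald test. At an unadjusted p under 0.05 by edgeR there were 4 lower (8.51% of all genes) and 2 higher (6.66% of all genes), which together was near the 15.2% of all genes. *E2f2* had a difference of 0.56 on the log2 scale (SE 0.14, adjusted p = 0.0510 by edgeR's quasi-likelihood test): its values were apart in 2D, and in 3D they were 5.57 and 5.21 CPM in iHLOs against 4.96 and 4.82 CPM in iHEAs. *E2f8* had a difference of -0.43 (SE 0.11, adjusted p = 0.0695 by the same test). The call for *E2f2* turned on the processing, since it was made under DESeq2 size factors, median centring, the filter of at least 5 and no filter (adjusted p = 0.0486, 0.0493, 0.0468 and 0.0320 by edgeR's quasi-likelihood test). *E2f8* was called without the filter (adjusted p = 0.0411 by the same test). Without the first iHEA library *Mcm3*, *E2f8* and *Ccnd1* were called with negative differences (adjusted p = 0.00602 to 0.0430), and without the unnumbered one *Orc6* and *E2f2* were called with positive differences (adjusted p = 0.0394 and 0.0488, edgeR's quasi-likelihood test). Over all genes 3.97% were called with negative differences in the former case and 2.91% with positive ones in the latter.

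The other genes of these pathways were followed in 7 further lists. Of 36 other replication fork and origin genes, 29 fell and 4 rose in 3D against 2D. *Recql4*, a helicase of replication start (-1.99), and *Dbf4*, the activator of the CDC7 kinase (-1.87), fell most, and *Mcm9* (0.40) and *Pold3* (0.24) rose most. Of 13 other nucleotide supply genes 9 fell, led by *Dck* (-1.38) and *Cad* (-0.83), and 3 rose, with *Ctps* (0.93) and *Umps* (0.27) first. Of 9 genes of chromatin assembly at the fork 7 fell and 0 rose, with *Chaf1a* (-1.54) and *Hells* (-1.43) first. The medians of these lists were -0.60, -0.35 and -0.85, against 0.014 over all genes tested. Of all genes tested 37.2% fell and 38.7% rose in 3D against 2D, and these shares apply to the lists and markers below as well. No test compared the lists with the 37 genes.

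Of 21 other G1/S regulators tested, 15 fell and 4 rose, with *Ccna2*, the S phase cyclin (-2.57), and *E2f7* (-2.29) falling most and *Mycn* (2.82) and *Ccnd3* (0.72) rising most. Of 5 other CDK inhibitors 4 fell, with *Cdkn2a* (-3.45) and *Cdkn2b* (-2.35) first, and *Cdkn1c*, which encodes p57, rose by 1.31. Of 16 p53 target genes 11 fell, with *Gdf15* (-2.06) and *Eda2r* (-1.97) first, and 2 rose, *Btg2* (1.28) and *Trp53inp1* (0.66). All 18 mitosis genes fell, with a median of -2.50 and *Ccnb1* (-2.83) and *Ccnb2* (-2.80), the B-type cyclins, first. The summed level of the mitosis genes was 2212 to 2426 CPM in 2D and 389 to 458 CPM in 3D. In iHEAs against iHLOs 0 genes of any of these 7 lists were called by edgeR's quasi-likelihood test, where only 1.07% of all genes were lower and 1.19% higher.

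Among the markers of other cell types, the summed endothelial level was 491 and 486 CPM in 2D-iHs, 435 and 414 CPM in 2D-iHEs, 1241 and 1377 CPM in iHLOs, and 958 and 878 CPM in iHEAs, and 5 of 6 tested endothelial markers rose in 3D against 2D. The level was higher in the cultures without iECs than in those with them. It was made up mainly of *Cdh5* in 2D and of *Vwf* and *Cdh5* in 3D, whereas *Cldn5* was at 0 and *Pecam1* at 2 to 22 counts in all culture libraries. The summed fibroblast level was 4.82 to 13.96 CPM in the 8 culture libraries against 29074 and 30318 CPM in MEFs, and that of leukocyte markers was 20.9 to 27.7 CPM. Of the 5 tested fibroblast markers 2 rose and 2 fell, and of 4 tested leukocyte markers 3 fell, in 3D against 2D. The summed hepatocyte level was 642 to 703 CPM in 2D and 1046 to 1096 CPM in 3D, made up mainly of *Apob* and *Apoa1*. Of 7 tested hepatocyte markers 5 rose, whereas *Alb* (-2.20) and *Apoa1* (-0.17) were not called. *Serpina1a*, *Cps1* and *Fgb* were too low to be tested. In iHLOs against 2D-iHs *Alb* was called lower (-3.34, adjusted p = 0.0102 by edgeR's quasi-likelihood test), with 210 and 9 counts in 2D-iHs. The part of all these markers in the falls of the 37 genes was not tested.

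2D-iHs against MEFs set the converted cells beside the cells they were made from, in different media, so that conversion and medium cannot be told apart. By edgeR's quasi-likelihood test 19 of the 37 genes were higher in 2D-iHs (45.7% of 14121 genes tested) and 12 were lower (38.2% of these), so the shares were near those of all genes. The median of all genes in this comparison was 0.11, and centring on it shifted every value down by 0.11. *Ccnd1* had 42.7 and 43.9 CPM in MEFs and was 14.3-fold higher in 2D-iHs (log2 fold change 3.83, SE 0.08). *E2f2* had 1.69 and 1.63 CPM in MEFs and was 9.72-fold higher. *Cdkn1a* had 86.9 and 92.7 CPM and was 3.97-fold higher. *Cdt1*, the loading factor whose protein is destroyed in S phase (1.63), *Mcm10* (1.33), *E2f8* (1.26), *Gins1* (1.25), *Rrm2* (1.08) and *Rfc4* (1.06) were also higher by over 2-fold.

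*Ccne1* moved the other way, from 19.0 and 17.9 CPM in MEFs to 4.43 and 5.09 CPM in 2D-iHs, a fitted fall of 4.09-fold. *Cdc6* (-0.88), *Fen1* (-0.78), *Rfc3* (-0.70), *Tk1* (-0.63) and *Mcm4* (-0.52) were lower by over 0.5 on the log2 scale. The ring subunits thus did not move together, since *Mcm5* (0.25) was higher, *Mcm3* (-0.19), *Mcm4* and *Mcm6* (-0.28) were lower, and *Mcm7* (0.13) and *Mcm2* (0.01, negative under DESeq2 size factors and median centring) were not called. With the filter of at least 5, *Mcm2* was called lower (-0.16, adjusted p = 0.0430 by edgeR's quasi-likelihood test). The higher calls for *Mcm5*, *Gins2*, *Pola1*, *Pole* and *Rpa2* were lost under median centring (adjusted p = 0.0831 to 0.480 by edgeR's quasi-likelihood test). All 5 were also lost without either adult library or the first fetal library (adjusted p = 0.0505 to 0.345), *Gins2*, *Pola1*, *Pole* and *Rpa2* without at least 1 of the MEF or 2D-iH libraries as well. The lower call for *Fen1* was lost without the second MEF or either 2D-iH library, and that for *Ccne2* without the first MEF or the second 2D-iH library (adjusted p = 0.0839 to 0.273 by edgeR's quasi-likelihood test). *Mcm7* was called higher without either iHEA library, *Rrm1* without the second 2D-iH or the unnumbered iHEA and by library total alone, and *Uhrf1* without the latter (adjusted p = 0.0187 to 0.0494 by the same test). *Orc6*, *Prim1*, *Rrm1* and *Uhrf1* were not called, and the signs of *Orc6* (0.03) and *Prim1* (0.05) also turned under the scalings that turned that of *Mcm2*.

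Of the further lists, 17 of 18 mitosis genes and 14 of 16 p53 target genes were higher in 2D-iHs than in MEFs, with *Cdc20* (1.73) and *Aurka* (1.72) first among the former and *Perp* (4.28) and *Gdf15* (3.59) among the latter. *Cdk6*, the partner of the D-type cyclins (4.17), was higher by the most among the other G1/S regulators. Fibroblast markers were lower in all 9 that were tested. The medians were 1.08 for the mitosis genes and 1.55 for the p53 targets, against 0.17 for the 37 genes and 0.11 for all genes.

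Adult liver against fetal liver compared the tissue after and during its growth. In adult liver 36 of the 37 genes were lower (43.8% of all genes tested) and 1 was higher (40.0% of all genes) by edgeR's quasi-likelihood test, with a median log2 fold change of -3.83 against -0.10 over all genes. A fall of at least 2-fold was called for 33 of them and for 26.9% of all genes. DESeq2 size factors moved the median of all genes by 0.12. By library total alone the median of all genes moved by -1.42, and all 37 genes were lower (75.3% of all genes) and 0 higher (16.2% of all genes), with a median of -5.25. The fold changes below are on the TMM scale, and by library total alone they are shifted downward by about as much as all genes. Fetal liver is also a site of blood formation, and the summed level of 9 erythroid markers was 31366 and 33563 CPM there against 551 and 593 CPM in adult liver. All 8 erythroid markers that were tested were lower in adult liver. The summed fibroblast level was 504 and 474 CPM in adult and 1858 and 3063 CPM in fetal liver. The hepatocyte level was 606998 and 575631 CPM in adult and 15217 and 11959 CPM in fetal liver, and the leukocyte level 717 and 686 against 427 and 354 CPM. The endothelial level was 365 and 367 against 311 and 311 CPM. The part of blood cells or other cell types in the levels of the 37 genes was not tested.

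The origin licensing genes fell by 3.47 to 7.00 on the log2 scale. *Orc1*, the large subunit of the origin recognition complex (chr4:108579423-108614833, plus strand), had 36.0 and 32.1 CPM in fetal liver and only 6 and 2 reads (0.393 and 0.127 CPM) in the adult libraries, against 5.45 and 5.33 CPM in MEFs. By counting alone its level in fetal liver was 132-fold higher, with a 95% interval of 67.1 to 307, which covers counting error only. *Cdc6* had 160 and 140 CPM in fetal and 1.31 and 1.14 CPM in adult liver, a fall of 119.7-fold. *Mcm2* fell 47.9-fold and *Mcm7* 19.2-fold. *Uhrf1* fell 95.2-fold, *E2f2* 74.5-fold, from 365 and 306 CPM to 5.04 and 3.80 CPM, and *Ccne1* 42.6-fold. *Fen1* had 6 reads in adult liver in all, so that its ratio of 27.5 had an interval of 12.5 to 75.6.

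A few genes changed less on the TMM scale. *Tk1*, on chr11:117815526-117826092 (minus strand), had 139 and 134 CPM in fetal liver, 116 and 114 CPM in adult liver and 47.7 and 53.7 CPM in MEFs. Its log2 fold change of -0.21 (SE 0.06, adjusted p = 0.00436 by edgeR's quasi-likelihood test) was the smallest fall. The call was lost under median centring (-0.12), DESeq2 size factors (-0.09) and DESeq2's test. It was also lost without either adult library or the first fetal library (adjusted p = 0.0686 to 0.171 by edgeR's quasi-likelihood test). *Afmid*, whose exons share 1.6% of the exon bases of *Tk1* on the opposite strand, had 76.7 and 87.1 CPM in adult liver and 4.41 and 3.79 CPM in fetal liver, and its part in the *Tk1* counts was not tested. *Mcm10* had 107 and 105 CPM in fetal and 69.6 and 67.5 CPM in adult liver, a fall of 1.52-fold, and shares no exon bases with another annotated gene. By library total alone *Tk1* was lower by 3.11-fold and *Mcm10* by 4.07-fold in adult liver, and the falls of *Ccnd1* and *Tk1* were the smallest of the 37 genes.

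In the same roles *Cdc45* had 2.94 and 2.66 CPM and *Rrm2* 19.4 and 17.4 CPM in adult liver, far under *Mcm10* and *Tk1*. *Ccnd1* was the 1 gene that was higher in adult liver on the TMM scale, with 143 and 147 CPM against 77.3 and 78.5 CPM (log2 fold change 0.92, SE 0.08). Its direction turned by library total alone, where the means were 64.9 CPM in adult and 93.6 CPM in fetal liver (log2 fold change -0.50, SE 0.07, adjusted p = 1.05e-05 by edgeR's quasi-likelihood test). Whether *Ccnd1* was higher or lower in adult liver thus rests on the scaling. *Cdkn1a* was low in both tissues, at 3.86 and 3.74 CPM in adult and 7.50 and 9.33 CPM in fetal liver, and *Cdkn1b* had 26.6 and 24.3 CPM in adult and 51.7 and 43.0 CPM in fetal liver.

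**Figure D5:**
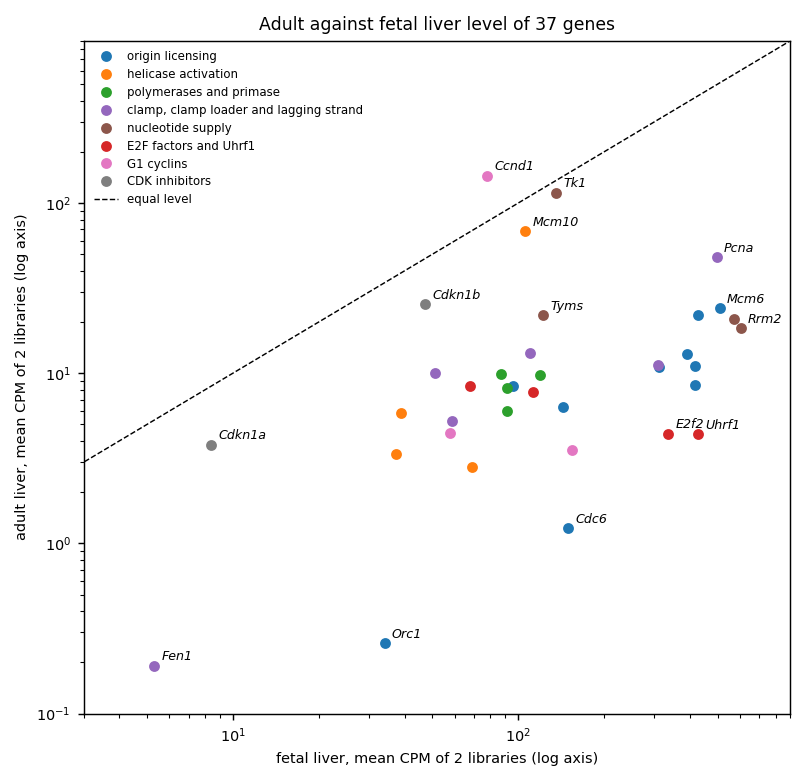
Each point is 1 of the 37 genes, with its mean level in fetal liver on the horizontal axis and in adult liver on the vertical axis, in CPM on log axes, coloured by role. Most points lie far below the dashed line of equal level, *Tk1* and *Mcm10* lie close to it and *Ccnd1* lies above it on this TMM scale, whereas by library total alone *Ccnd1* was lower in adult liver (log2 fold change -0.50) and *Tk1* and *Mcm10* lower by 3.11-fold and 4.07-fold.

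In the further lists, all 18 mitosis genes and all 9 chromatin assembly genes were lower in adult liver, with medians of -4.72 and -3.49. Of the 36 other replication genes 34 were lower, with *Clspn* (-7.10) and *Ticrr* (-6.52) first, and *Pold4* (2.15) was higher. The other nucleotide supply genes were split, with 8 of 13 lower, among them *Dut* (-3.32) and *Dck* (-3.30), and 3 higher, with *Shmt1* (2.85) and *Tk2*, the mitochondrial thymidine kinase (1.75), first. Of 16 p53 target genes 9 were higher in adult liver (40.0% of all genes) and 7 lower (43.8% of all genes). With no scaling factor 3 p53 target genes were higher and 11 lower, and 2 other nucleotide supply genes were higher and 11 lower. On that scale 16.2% of all genes were higher and 75.3% lower.

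Fetal liver against MEFs and 2D-iHs against fetal liver placed the cells beside the growing tissue, and these comparisons share the fetal libraries with the one above. In fetal liver 35 of the 37 genes were higher than in MEFs (44.4% of all genes) and 2 were lower (41.9% of all genes), with a median of 2.35. The lower genes were the CDK inhibitors *Cdkn1a* (-3.39) and *Cdkn1b* (-0.73), and *E2f2* (7.69) was higher by the most. In 2D-iHs 34 of the 37 genes were lower than in fetal liver (43.3% of all genes) and 3 higher (42.0% of all genes), with a median of -2.09. The higher genes were *Cdkn1a* (5.38), *Ccnd1* (2.95) and *Cdkn1b* (0.39), and *Ccne1* (-5.12), *E2f2* (-4.41) and *Cdc6* (-4.01) were lower by the most. The monolayers thus held replication genes at a level under that of fetal liver, with a G1 cyclin and a CDK inhibitor far over it.

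iHLOs against adult liver set the organoids beside the resting tissue. In iHLOs 27 of the 37 genes were higher (45.7% of all genes) and 6 lower (39.2% of all genes) by edgeR's quasi-likelihood test, with a median of 1.08 against 0.13 over all genes, which DESeq2 size factors shifted by -0.15. With no scaling factor that median moved by 1.43, and 35 genes were higher (74.1% of all genes) and 2 lower (18.3% of all genes), with a median of 2.51. *Cdkn1a* was 42.5-fold higher in iHLOs, and *Orc1* (3.68, with 8 reads in adult liver in all), *Cdc6* (2.47), *Uhrf1* (2.32) and *Mcm2* (2.13) followed on the log2 scale. The lower genes were *Tk1*, by 10.1-fold, *Mcm10*, by 5.80-fold, *Gins1* (-1.03), *Tyms* (-0.61), *Ccnd1* (-0.52) and *Rfc3* (-0.42). With no scaling factor *Tk1* and *Mcm10* were lower by 3.75-fold and 2.15-fold, whereas *Gins1* (0.41), *Tyms* (0.83), *Ccnd1* (0.91) and *Rfc3* (1.01) turned and were called higher, so that their direction rests on the scaling. *Rpa2* (1.19) was called higher on that scale as well. *Rpa2* (-0.24), *E2f2* (0.16), *Ccne1* (0.09) and *E2f8* (-0.02) were not called. *Rpa2* was called lower under median centring (-0.37) and DESeq2 size factors (-0.39) and *Pola1* (0.29) was no longer called higher (adjusted p = 0.148 and 0.191 by edgeR's quasi-likelihood test). *Rpa2* was called as well without the second iHLO, either iHEA, the first adult or either fetal library. *Pola1* was not called without the second iHLO, either adult or the first fetal library, *Gins2* and *Fen1* without the first adult library and *Rrm2* without the second. The summed erythroid level was 0.997 and 1.25 CPM in iHLOs, and all 10 hepatocyte markers were lower in iHLOs than in adult liver.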

How the data were processed

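RNA was sequenced in 14 mouse libraries. Per the submitters' processing notes, reads were trimmed with Trimmomatic 0.36 and processed with HISAT2, Cufflinks and HTSeq on mm10. The deposited table holds raw read counts per gene, which the authors made without normalization. Whether counting used strand is not given in the sources used here.

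Genes were kept at a mean log2(count + 1) of at least 3, scaled with TMM and tested with edgeR 4.0.16 (R 4.3.3) by the quasi-likelihood test, with Benjamini-Hochberg adjustment over all genes tested. Culture comparisons were fitted on 8 libraries and those with MEFs or liver on 14. DESeq2 1.42.0 was an alternative, as were other scalings and filters, subsets and the replicate block. Scaling by library total alone was added after seeing the data. The code was tested on simulated data. Counting intervals are exact and at 95%, without molecular identifiers. Total counts of 20851489 to 35143325 set the precision. Gene positions are from GENCODE M21 and promoters from RefSeq GRCm38.p6.

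All 37 genes were named, with values in every library for at least 1 gene of each role, for genes called in iHEAs against iHLOs, in the difference of the iEC effects or against the direction of most genes in 3D, and for the largest and smallest changes in 3D and in adult against fetal liver. Other genes given per library were chosen after their values were seen. For the other lists at most 2 genes were named in each direction. The members and lists were chosen with earlier results of these data known.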

Additional observations from a re-analysis of the deposited data

Results flagged for a closer look

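In 74 groups of 4 libraries, the 4 2D and the 4 3D libraries of each of the 37 genes, 4 had a library that stood apart from the other 3 by Dixon's 95% criterion, and chance sets off about 1 in 20 such groups. *Pcna*, the sliding clamp, was highest in the first 2D-iH library at 119 CPM, and *Rrm1*, of ribonucleotide reductase, was highest in the same library at 169 CPM. *Rfc4*, a clamp loader subunit, was highest among the 3D libraries in the second iHLO at 9.07 CPM. *Lig1*, the replicative ligase, was lowest among the 3D libraries in the unnumbered iHEA at 22.5 CPM. In all 4 genes the 3D values still lay below every 2D value.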

How the results depend on the processing

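Of the counts of called genes recomputed under the alternatives, 378 stayed within 1.5 times the reported count, 23 were higher and 11 lower. With a 2-fold minimum, 17 genes were lower and 0 higher in 3D. In iHLOs against 2D-iHs 1 gene was higher (*Cdkn1b*) without the filter, with a filter of at least 5, with the 4 libraries alone and with the replicate block, and in iHEAs against 2D-iHEs 1 was higher without the filter. Without the filter 3 genes were lower in iHEAs against iHLOs, and for the iEC effect in 3D minus 2D 1 was lower (*E2f8*) and 1 higher (*E2f2*), with *E2f2* as the 1 higher also under DESeq2 size factors, median centring and the filter of at least 5. In 2D-iHEs against 2D-iHs 5 genes were lower with the 4 libraries alone. By library total alone, chosen after seeing the data, 1 gene was higher in iHLOs against 2D-iHs and 1 in iHEAs against 2D-iHEs, 0 were higher in adult against fetal liver, and 2 were lower in iHLOs against adult liver. The sign turned on that scale for *Ccnd1* in adult against fetal liver (-0.50), for *Gins1* (0.41), *Rfc3* (1.01), *Rpa2* (1.19), *Tyms* (0.83) and *Ccnd1* (0.91) in iHLOs against adult liver, and for the median in 2D-iHEs against 2D-iHs (0.017).

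Leaving out 1 library at a time gave 32 to 34 genes lower and 0 to 1 higher in 3D against 2D, 30 to 32 and 0 to 1 in iHLOs against 2D-iHs, and 30 to 34 and 0 to 1 in iHEAs against 2D-iHEs. It gave 0 to 3 lower in iHEAs against iHLOs, 1 to 5 lower in 2D-iHEs against 2D-iHs, and 0 to 3 lower and 0 to 2 higher for the iEC effect in 3D minus 2D. In 2D-iHs against MEFs it gave 10 to 12 lower and 14 to 22 higher, and in iHLOs against adult liver 6 to 7 lower and 24 to 27 higher. A condition left with 1 library was assumed to vary like the others.

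Signs turned with 1 library left out for *Fen1* (-0.071 to 0.24 in 3D against 2D, -0.15 to 0.035 in iHLOs, -0.21 to 0.71 in iHEAs), for *Ccne1* in iHEAs (-0.33 to 0.16), and for the median in 2D-iHEs against 2D-iHs (-0.025 to 0.0026). In 2D-iHs against MEFs, under DESeq2 size factors, median centring, the filter of at least 5, DESeq2's test and the 4 libraries alone, *Orc6* gave -0.060, -0.084, -0.14, -0.060 and -0.035, *Mcm2* -0.083, -0.11, -0.16, -0.083 and -0.058, and *Prim1* -0.044, -0.067, -0.12, -0.044 and -0.017. With 1 library left out these ran from -0.070 to 0.11, -0.093 to 0.053 and -0.053 to 0.15. With the filter of at least 5, *Mcm7*, *Rrm1* and *Uhrf1* gave -0.039, -0.041 and -0.042. The cause was not tested.

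The 15 correlations of same-numbered deviations ran from -0.0703 to 0.0476, so no pairing by replicate number was seen in the levels. They leave out iHEAs and cannot show whether same-numbered libraries were handled together. With the replicate block 5 genes were lower in 2D-iHEs against 2D-iHs, where calls over all genes went from 1096 to 1952, and 12 were lower and 22 higher in 2D-iHs against MEFs. The 4 libraries alone, with no block, gave 978 genes lower and 1068 higher in 2D-iHEs against 2D-iHs, so this rise was not particular to the block. In the other comparisons the block could be run for, it left the counts of called genes as reported, beside *Cdkn1b* in iHLOs. The block was not run where the unnumbered iHEA library enters. *Fen1*, at 17 to 27 counts per culture library, and *Orc1* in adult liver are limited by depth.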
